A study of Mus musculus with 22 samples.

Results

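The 9 genes followed here handle metals and heme, and they were measured in the retina and the RPE, the pigmented epithelium behind it, of WT and AdipoR1-/- (KO) mice. They are the metallothioneins Mt1, Mt2 and Mt3, ceruloplasmin (Cp), transferrin (Trf), the transferrin receptor (Tfrc), the ferritin heavy and light chains (Fth1 and Ftl1) and heme oxygenase 1 (Hmox1). They were chosen by name, with earlier results of these data known. Counts of them set beside the share of all genes are therefore descriptions and not a test. All 9 were found among the 53801 genes of the bulk count tables and among the 19324 genes of the single-cell matrix. The mice were C57BL/6J, either WT or homozygous for a germline disruption of Adipor1, which encodes a receptor for adiponectin, so that every cell of a KO mouse lacked the intact gene. Bulk RNA-Seq was made at P30 from retina and from RPE that had been detached from the eyecup, with 4 libraries per genotype and tissue. Single-cell RNA-Seq was made from retina of both genotypes at P19, P25 and P30, and each of the 6 libraries pooled 4 retinae, so that 1 library stands for a genotype at an age. The study describes mice as the replicates of the bulk groups, but the labels tie no library to a mouse, and p-values measure the spread between these libraries.

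Metallothioneins are small cysteine-rich proteins that bind zinc and copper, and Mt1 and Mt2 are transcribed in many tissues when the factor MTF1 senses zinc and binds metal response elements in their promoters. Iron travels in blood bound to transferrin, enters cells through the transferrin receptor, is stored in ferritin shells of heavy and light chains, and is oxidized on its way out of cells by ferroxidases such as ceruloplasmin. Hmox1 opens the heme ring to release iron, biliverdin and carbon monoxide, and it is a common target of the oxidative stress factor NRF2. In the eye the RPE and Müller glia stand between the blood and the photoreceptors, and transferrin and ceruloplasmin made within the eye take part in moving iron between them.

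The 3 metallothionein genes lie side by side on chromosome 8 (GRCm38, plus strand), with Mt3 at chr8:94152607-94154146, Mt2 at chr8:94172664-94173568 and Mt1 at chr8:94179082-94180327. Hmox1 is on the same chromosome at chr8:75093621-75100589, plus strand. Cp is at chr3:19957054-20009145, plus strand, Trf at chr9:103204001-103230444, minus strand, Tfrc at chr16:32608920-32632794, plus strand, Fth1 at chr19:9980598-9985098, plus strand, and Ftl1 at chr7:45457944-45459884, minus strand. The promoters of Mt1 and Mt2 are shown because these genes moved together in several cell classes. Each run is 160 bases of RefSeq sequence (GRCm38.p6, plus strand), from 130 bases before the transcript start to 30 bases after it, and capitals mark every match on either strand to the metal response element core, TGCACNC or TGCGCNC. The Mt1 run is chr8:94178959-94179118 and the Mt2 run is chr8:94172488-94172647.
Mt1: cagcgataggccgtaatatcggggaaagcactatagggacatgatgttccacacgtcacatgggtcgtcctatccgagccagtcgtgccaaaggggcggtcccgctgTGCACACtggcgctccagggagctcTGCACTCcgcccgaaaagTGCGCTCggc
Mt2: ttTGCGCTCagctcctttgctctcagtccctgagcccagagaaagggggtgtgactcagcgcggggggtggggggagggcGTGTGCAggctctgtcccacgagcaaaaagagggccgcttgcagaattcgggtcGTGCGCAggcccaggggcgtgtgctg

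In the full promoter windows of 300 bases, the core was found 3 times for Mt1, 4 times for Mt2, 1 time for Mt3 and not at all for Cp, Fth1 or Ftl1. A Tfrc window held 2 overlapping matches. Of 32851 mouse promoter windows of the same length, 25.7% held at least 1 match and 1.97% held at least 3. The core of the antioxidant response element, TGACNNNGC or TGAGNNNGC, was found 1 time each for Mt2 and Mt3, against 27.8% of all windows with at least 1. A match describes the letters of these windows and is not evidence of binding. The promoter table held 7 of the 9 genes, and Trf and Hmox1 were not in it.

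Ferritin and the transferrin receptor are also controlled after transcription. Iron regulatory proteins bind a hairpin, the iron responsive element, when iron is scarce. In the 5′ UTR of ferritin mRNA this blocks translation, and in the 3′ UTR of Tfrc mRNA it protects the message from decay. Read counts therefore measure the transcript of Fth1 and Ftl1 and not the ferritin protein. The elements are shown to mark which of these genes carry them and on which side of the coding sequence. Each is 30 bases of GRCm38 on the strand of the gene, at chr19:9982732-9982761 in the 5′ UTR of Fth1, at chr7:45459778-45459807 in the 5′ UTR of Ftl1, and in the 3′ UTR of Tfrc at chr16:32631219-32631248, chr16:32631598-32631627, chr16:32631663-32631692 and chr16:32631710-32631739. Capitals mark the loop between the paired arms.
Fth1: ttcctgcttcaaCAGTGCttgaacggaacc
Ftl1: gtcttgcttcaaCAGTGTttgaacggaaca
Tfrc, first: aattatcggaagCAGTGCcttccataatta
Tfrc, second: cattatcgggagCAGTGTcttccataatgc
Tfrc, next: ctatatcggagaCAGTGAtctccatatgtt
Tfrc, last: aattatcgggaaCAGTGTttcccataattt

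Such a hairpin match was found anywhere in a transcript, coding sequence included, for 222 of 21877 protein-coding genes (1.01%).

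Bulk libraries held 20133143 to 38409496 counted reads, and single-cell libraries held 2558 to 5633 cells with a median of 1349 to 4357 UMIs. The targeted gene followed the labels. Adipor1 was at 589.0 to 607.3 CPM (reads scaled to the size of the library) in WT and at 136.3 to 142.0 CPM in KO retina libraries, and its mean fell from 409.1 ± 48.7 to 145.5 ± 5.80 CPM in the RPE (SD, n = 4). Pairs of single-cell libraries shared 0 to 15 cell barcodes. The RPE libraries carried rod RNA in unequal amounts: the summed level of 8 rod genes was 964.4, 15300, 15220 and 1459 CPM in WT libraries 1 to 4 and 627.9, 3683, 5238 and 995.6 CPM in the KO libraries, so libraries 2 and 3 were high in both genotypes. Results in the RPE are therefore given also for libraries 1 and 4 alone where that changed a call. The single-cell P30 libraries were sequenced on another instrument than the P19 and P25 libraries. Each age holds both genotypes, so this does not separate the genotypes, but P30 and that batch cannot be told apart.

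In the retina at P30, Mt1, Mt2, Trf, Hmox1 and Cp were higher in KO mice by 2.02-fold to 6.78-fold, and Tfrc was lower by less. In all, 8 of the 9 genes passed an adjusted p below 0.05 in edgeR's quasi-likelihood test, 7 higher and 1 lower. Of all 19381 genes tested, 30.9% passed, 16.2% higher and 14.7% lower. Of the 9 genes, 5 were DEGs, which also needed a fold change of at least 1.5. For this list, chosen with earlier results of these data known, the median log2 fold change was 1.01, against 0.004 over all genes tested. In a fit over all 16 bulk libraries, where retina and RPE share one estimate of spread, the smaller changes of Mt3, Tfrc and Ftl1 did not pass (edgeR adjusted p = 0.0603, 0.0787 and 0.214).

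Mt1 was at 29.3, 41.5, 35.8 and 38.1 CPM in the 4 WT retina libraries and at 119.1, 142.6, 129.3 and 147.2 CPM in the KO libraries. Every KO library was far above every WT library. The log2 fold change was 1.89 (3.72-fold, SE 0.0936, edgeR adjusted p = 6.09e-09). Mt2, its neighbor on the chromosome and nearly the same protein, started lower and rose more. It was at 10.1, 16.1, 16.4 and 17.9 CPM in WT and at 88.9, 112.6, 89.6 and 118.3 CPM in KO libraries, without overlap, for a log2 fold change of 2.76 (6.78-fold, SE 0.147, edgeR adjusted p = 1.32e-08). In both genotypes library 1 had the lowest value of both genes. Mt3, the metallothionein best known from neurons and astrocytes of the brain, stood apart from this pair. It was at 12.3, 14.1, 12.3 and 13.04 CPM in WT and at 14.5, 15.3, 18.1 and 17.0 CPM in KO libraries. The groups did not overlap, but the gap between them was small, and the log2 fold change was 0.32 (1.25-fold, SE 0.0828, edgeR adjusted p = 0.00940).

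Trf, the iron carrier, was scarce in the WT retina, at 3.40, 4.76, 5.73 and 5.74 CPM, and reached 28.6, 26.9, 30.0 and 29.9 CPM in KO libraries. The KO libraries were close to each other and did not overlap with WT. Its log2 fold change was 2.56 (5.88-fold, SE 0.124, edgeR adjusted p = 5.33e-09). Cp, the copper-containing ferroxidase, was at 146.2, 174.8, 165.1 and 187.9 CPM in WT and at 346.8, 332.1, 349.3 and 330.0 CPM in KO libraries. Every KO library was above every WT library, with a log2 fold change of 1.01 (SE 0.0635, edgeR adjusted p = 6.34e-08). The receptor moved the other way. Tfrc was at 147.7, 142.4, 146.1 and 170.9 CPM in WT and at 136.0, 133.3, 125.0 and 113.8 CPM in KO libraries, with no overlap. Its log2 fold change was -0.26 (0.838-fold, SE 0.0644, edgeR adjusted p = 0.00851), and scaling by library totals alone gave -0.15 with an adjusted p of 0.0905.

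The ferritin chains, which store iron, differed by at most 1.16-fold. Fth1 was at 312.5, 340.0, 311.3 and 314.5 CPM in WT and at 329.9, 335.1, 344.3 and 324.6 CPM in KO libraries. The groups overlapped because of WT library 2, and the log2 fold change was 0.06 (95% interval -0.030 to 0.153, edgeR adjusted p = 0.305). Ftl1 was at 78.3, 83.0, 79.8 and 79.3 CPM in WT and at 85.5, 91.9, 97.7 and 98.1 CPM in KO libraries. These did not overlap, with a log2 fold change of 0.22 (1.16-fold, SE 0.0477, edgeR adjusted p = 0.00333). Reads of Ftl1 are uncertain, because near-identical copies of the gene were also counted, Ftl1-ps1 at a mean of 69.1 CPM and Ftl2-ps at 32.04 CPM in the retina, and the counting could split reads among them. Hmox1, which frees iron from heme, was rare but evenly measured. It was at 2.28, 2.43, 2.34 and 2.26 CPM in WT and at 6.90, 7.70, 8.29 and 7.49 CPM in KO libraries. All KO libraries exceeded all WT libraries, with a log2 fold change of 1.70 (3.26-fold, SE 0.101, edgeR adjusted p = 3.79e-08).

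In bulk tissue, fewer cells of a type and less RNA per cell cannot be told apart. The summed rod genes were at 58050 to 63900 CPM in WT and 30040 to 34340 CPM in KO retina, with 7 of 8 genes lower. The 11 microglia genes were at 72.0 to 76.8 CPM in WT and 247.1 to 287.6 CPM in KO retina, with all 11 higher. The astrocyte genes were at 557 to 601 and 778 to 857 CPM, with 2 of 7 higher, and the Müller glia genes at 3889 to 4147 and 4000 to 4252 CPM, with 7 of 11 higher and 1 lower. The RPE genes were at 40.5 to 126.3 CPM in WT and 82.01 to 171 CPM in KO retina, with 2 of 9 higher. Melanocyte and choroid genes were at 22.96 to 45.7 and 47.8 to 146.3 CPM, with 4 of 9 tested genes higher. Endothelial genes were at 299.1 to 351.2 and 465.2 to 488.1 CPM, with 2 of 8 higher and 1 lower, and pericyte genes at 855.9 to 961.7 and 673.5 to 713.4 CPM, with 1 higher and 1 lower. The part of these cells in the bulk results for the 9 genes was not tested in bulk, and values within cell classes follow.

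**Figure D1:**
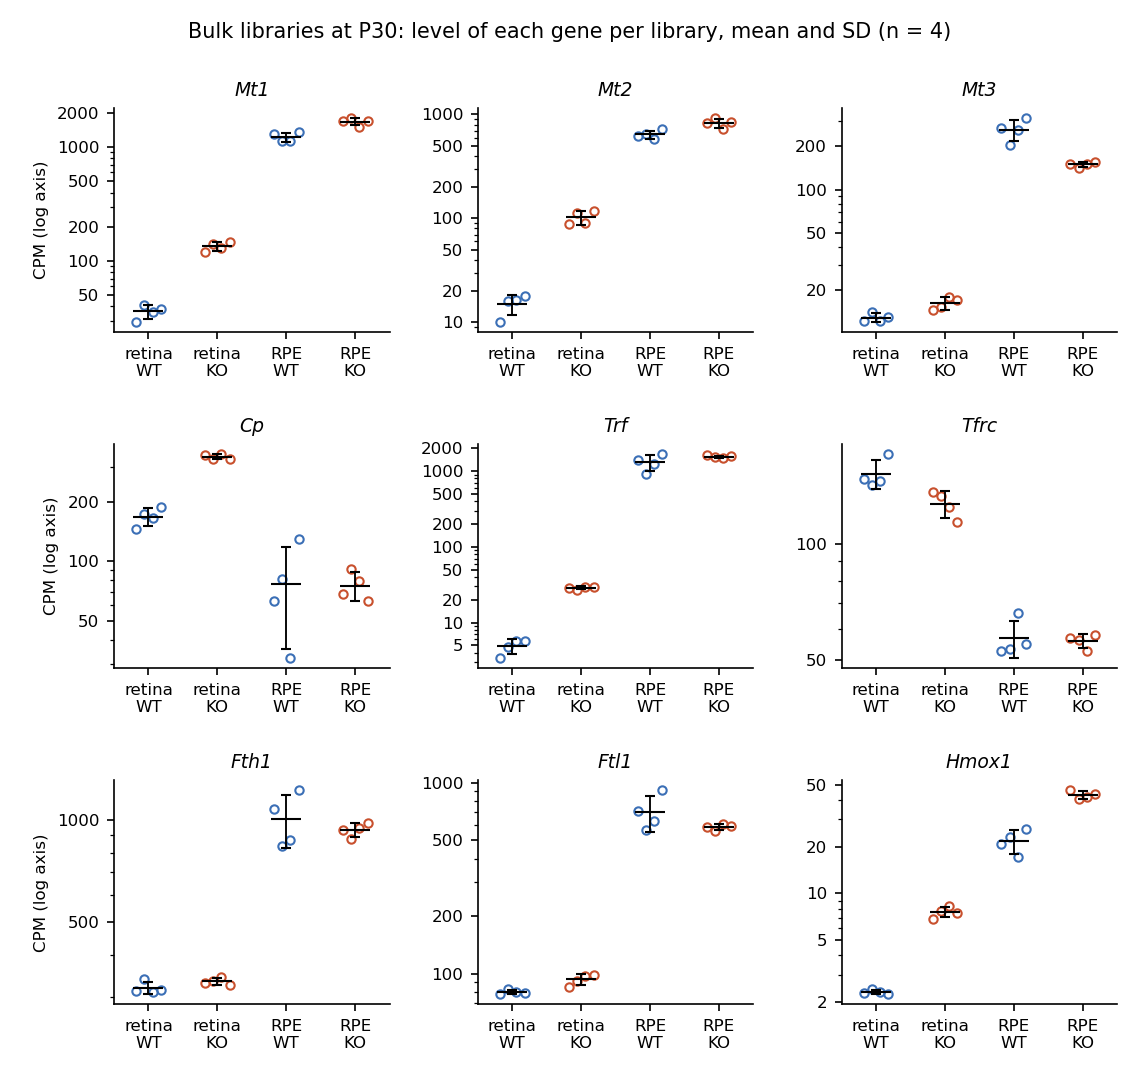
Level of each of the 9 genes in the bulk libraries at P30. Each panel is 1 gene, the y axis is CPM on a log axis, circles are libraries, and bars give the mean and SD of n = 4 libraries for retina and RPE of WT and KO mice. CPM were scaled within each tissue, so only genotypes are to be compared. KO retina lies above WT retina without overlap for 7 genes and below it for Tfrc, and in the RPE the groups separate for Mt1, Mt3 and Hmox1. How many of all genes separate in this way was not counted. Of all genes tested, 30.9% in the retina and 6.73% in the RPE passed an adjusted p below 0.05 in edgeR.

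Other genes of the same pathways are given by list. The shares of the heme, zinc and copper lists that passed in the retina were below the 30.9% of all genes, so their counts are no result about these lists, and those of the iron and antioxidant lists were above it. Among 25 tested genes of iron transport, storage and regulation, 9 were higher and 6 lower, and the median log2 value was 0.094. Those with the smallest p were Slc25a37 (mitoferrin 1, the mitochondrial iron importer), from a mean of 76.3 to 248.7 CPM with a log2 fold change of 1.71 (edgeR adjusted p = 7.1e-12), Lcn2 (lipocalin 2, which binds bacterial iron chelators) with 2.39 (1.84e-09), and Steap4 (a metalloreductase) with 3.39 (4.52e-08), the last from a WT mean of only 0.352 CPM. Of 13 genes of heme synthesis 2 were higher and 2 lower, with a median of 0.019. Tspo, an outer mitochondrial membrane protein, rose by a log2 fold change of 1.29 (adjusted p = 2.43e-05), while the enzymes Urod and Uros were at -0.47 (2.49e-05) and -0.18 (0.0182). Of 15 genes of heme breakdown, scavenging and transport, 3 were higher and 1 lower, with a median of 0.059. They included Abcc1 (0.28, adjusted p = 6.46e-05), Lrp1, the receptor for hemopexin-bound heme (0.34, 0.000953), and Flvcr1, a transporter first described as a heme exporter (-0.24, 0.00640).

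Of 21 zinc handling genes 4 were higher and 1 lower, and the median log2 value was 0.043, led by the zinc importer Slc39a1, from 26.5 to 43.3 CPM (0.71, edgeR adjusted p = 4.63e-07), Slc39a4 (1.17, 0.0130) and Slc30a9 (0.12, 0.0355). None of 11 copper genes was higher and 3 were lower, Slc31a2 (-0.36, 0.000149), Commd1 (-0.30, 0.00106) and the copper pump Atp7b (-0.50, 0.00115), with a median of -0.070. Of 34 antioxidant response genes, 15 were higher and 2 lower, with a median of 0.126. The peroxidase Prdx6 rose from 124.5 to 190.3 CPM (0.61, adjusted p = 1.70e-06), and the heat shock genes Hspa1b (-0.52, 4.43e-05) and Hspa1a (-0.57, 7.45e-05) were the lower ones.

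In the RPE fewer of the 9 genes passed. The fold changes of Mt1, Mt2, Trf and Hmox1 were smaller than in the retina, and that of Mt3 was larger. Fold changes are relative to WT levels, which were higher in the RPE for these genes, as given below. Hmox1 was 1.97-fold higher in KO mice, Mt1 was higher by 1.36-fold, and Mt3 was lower, while Trf, Cp, Tfrc and both ferritins did not pass the test. In all, 3 of the 9 genes passed, against 6.73% of the 18989 genes tested, and 2 were higher (2.84% of all genes) and 1 lower (3.89%). The median log2 fold change over the 9 genes was -0.024, against -0.019 over all genes.

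Hmox1 was at 20.8, 23.2, 17.1 and 26.2 CPM in WT RPE libraries and at 46.0, 40.6, 41.8 and 43.6 CPM in KO libraries. The groups were well apart, with a log2 fold change of 0.98 (1.97-fold, SE 0.126, edgeR adjusted p = 0.00375). With libraries 1 and 4 alone the log2 fold change was 0.95 with an adjusted p of 0.0676. Mt3 was at 266.7, 203.0, 259.6 and 312.7 CPM in WT and at 151.5, 141.3, 150.4 and 155.1 CPM in KO libraries. The KO libraries were tightly grouped below all WT libraries, with a log2 fold change of -0.80 (0.574-fold, SE 0.121, edgeR adjusted p = 0.00772).

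Mt1 was at 1299, 1135, 1135 and 1356 CPM in WT and at 1706, 1792, 1511 and 1707 CPM in KO RPE libraries. The groups did not overlap, and the log2 fold change was 0.45 (SE 0.0978, edgeR adjusted p = 0.0336). This call was not stable: the adjusted p was 0.0621 with the replicate number as a block, 0.125 with libraries 1 and 4 alone, and 0.104, 0.0817, 0.109 and 0.0921 without KO library 1, KO library 2, KO library 4 or WT library 3. Mt2 was at 614.5, 650.7, 586.6 and 719.6 CPM in WT and at 820.8, 921.2, 717.7 and 838.7 CPM in KO libraries. WT library 4 lay just above KO library 3, and the log2 fold change of 0.36 (95% interval 0.127 to 0.592) had an edgeR adjusted p of 0.0807, while DESeq2 gave 0.36 with 0.00367.

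The remaining genes of the RPE varied most among the WT libraries. Trf was at 909.4 to 1665 CPM in WT and 1503 to 1613 CPM in KO libraries (log2 fold change 0.24, 95% interval -0.151 to 0.633), and Cp at 32.3 to 130.4 CPM in WT and 62.5 to 91.1 CPM in KO libraries (-0.03, -0.873 to 0.821). In both genes the WT libraries spanned the KO libraries. Tfrc was at 52.7 to 66.3 CPM in WT and 52.5 to 58.0 CPM in KO libraries (-0.02, -0.215 to 0.167), Fth1 at 839.7 to 1221 and 879.8 to 982.0 CPM (-0.10, -0.396 to 0.196), and Ftl1 at 563.6 to 908.8 and 558.1 to 609.7 CPM (-0.26, -0.587 to 0.068). The edgeR adjusted p of these 5 genes ranged from 0.354 to 0.978. The copies Ftl1-ps1 and Ftl2-ps were at means of 489.9 and 206.6 CPM in the RPE, so the uncertainty of Ftl1 holds there too.

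In the same RPE libraries the 11 microglia genes were at 442.8 to 702.7 CPM in WT and 820.7 to 919.1 CPM in KO mice, with 9 of 11 higher. The red blood cell genes were at 2480 to 4316 CPM in WT and 918.9 to 2580 CPM in KO mice, with 2 of 7 lower. The RPE genes themselves were at 32590 to 50630 and 42800 to 44960 CPM, with 1 of 9 higher and 2 lower. The 10 lens genes reached 882.2 CPM in WT RPE, with 2 lower in KO mice. The part of microglia, blood and lens in the values of Hmox1 and Mt3 was not tested.

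Among the pathway lists in the RPE, the zinc and iron importer Slc39a14 rose from a mean of 57.7 to 122.1 CPM (log2 fold change 1.08, edgeR adjusted p = 0.000207), and was the only one of 25 iron genes that was higher. Bmp6, a ligand that signals iron load in the liver, fell from 119.5 to 63.3 CPM (-0.92, 0.00413), and the reductase Steap2 was at -0.45 (0.0337). The median over the iron genes was 0.148. Atp7a, the copper exporter, rose from 56.9 to 109.2 CPM (0.94, 0.0121), the 1 of 11 copper genes that passed, with Slc31a1 (-0.25, 0.225) and Commd1 (-0.20, 0.250) next by p. The zinc exporter Slc30a1 was at 0.46 (0.0364) and the zinc transporter Slc39a7 at -0.42 (0.0493), 1 higher and 1 lower of 20, followed by Slc39a1 (0.41, 0.0836). Hemopexin, Hpx, was at -0.97 (0.0162), the 1 lower of 17 genes of heme breakdown and transport, of which none was higher, and Flvcr1 (0.32, 0.0630) and Slc48a1 (-0.30, 0.0848) came next.

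None of 13 heme synthesis genes passed in the RPE. Of them, 3 had the smallest p: the red cell enzyme Alas2 (-1.04, edgeR adjusted p = 0.111), Abcb6 (-0.35, 0.356) and Alad (-0.20, 0.355). None of 34 antioxidant response genes passed either, with Nqo1 (-0.38, 0.115), Gpx4 (-0.28, 0.139) and Prdx1 (0.26, 0.178) the nearest. With 6.73% of all genes past the test in the RPE, counts of 0 to 3 per list are no result about a list. The list medians in the RPE were -0.069 for heme synthesis, 0.091 for heme breakdown, 0.016 for zinc, 0.028 for copper and 0.083 for the antioxidant response.

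The genotype effect itself differed between the tissues for 5 of the 9 genes, against 8.84% of the 21068 genes tested for the interaction of genotype and tissue in edgeR. The log2 fold change in the RPE was below that in the retina by 1.43 for Mt1 (interval of the difference -1.747 to -1.105, adjusted p = 3.82e-05). The differences were -2.38 for Mt2 (1.10e-05), -2.29 for Trf (3.45e-05), -1.10 for Mt3 (0.000295) and -0.70 for Hmox1 (-0.996 to -0.404, 0.00494). Mt3 passed in opposite directions in the tissues, slightly higher in KO retina and lower in KO RPE. No difference passed for Cp (-1.0025, adjusted p = 0.134), Ftl1 (-0.46, 0.0732), Tfrc (0.25, 0.282) or Fth1 (-0.14, 0.567), and the wide interval of Cp, -1.830 to -0.174, came with its spread in the WT RPE.

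**Figure D2:**
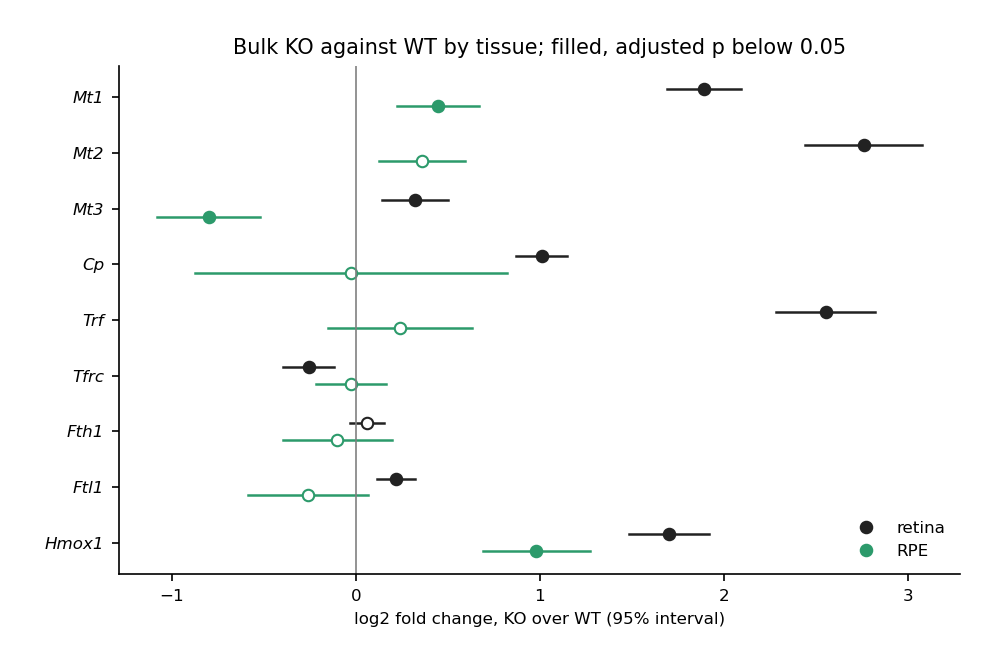
Log2 fold change of KO over WT for each of the 9 genes in bulk retina and RPE at P30, with 95% intervals from edgeR. Filled points have an adjusted p below 0.05. Mt1, Mt2, Trf and Hmox1 lie farther above 0 in the retina than in the RPE, and Mt3 lies on opposite sides of 0.

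The tissues also started from very different levels. In WT mice all 9 genes differed between RPE and retina, as did 84.6% of all genes tested, in the fit over all 16 bulk libraries. Trf was 330.4-fold higher in RPE (log2 8.37, edgeR adjusted p = 3.47e-13), Mt2 52.7-fold, Mt1 42.2-fold, Mt3 24.9-fold, Hmox1 11.6-fold, Ftl1 10.9-fold and Fth1 3.88-fold higher. Tfrc and Cp were the ones higher in retina, at 0.466-fold and 0.560-fold in RPE (adjusted p = 4.97e-08 and 0.0109). On the scale shared by both tissues (RPKM, explained next), Mt1 was at 96.5 ± 9.14 in KO retina and at 1096 ± 76.6 in WT RPE (SD, n = 4).

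Levels between genes were compared as RPKM, which divides the scaled counts by exon length. That length joined all annotated exons, 1246 bases for Mt1, its whole gene span, and 588 bases for Mt2. The order of genes in RPKM depends on these lengths. Not divided by length, Mt1 was above Mt2 in both tissues. Their means over both genotypes were 85.4 and 58.7 CPM in the retina and 1455 and 733.7 CPM in the RPE. RPKM were scaled over all 16 bulk libraries together, and the CPM values were scaled within each tissue, so the latter are not compared between tissues. In WT retina the ferritin heavy chain led, with a mean of 82.5 RPKM for Fth1 and 53.5 for Ftl1, followed by Mt1 (26.0 ± 3.74), Mt2 (23.0 ± 5.24) and Tfrc (22.0 ± 1.96), neighbors whose ranges of mean ± SD overlapped, then Cp (15.8), Mt3 (10.9), Trf (1.32) and Hmox1 (1.19). In KO retina the order was Mt2 (155.5), Mt1 (96.5), Fth1 (85.9), Ftl1 (62.2), Cp (31.7), Tfrc (18.4), Mt3 (13.6), Trf (7.76) and Hmox1 (3.88). In WT RPE Mt2 (1213) and Mt1 (1096) were at the top, ahead of Ftl1 (580.6), Trf (437.7), Fth1 (320.2) and Mt3 (271.1), with Hmox1 (13.8), Tfrc (10.2) and Cp (8.84) far lower. In KO RPE Mt2 (1576) and Mt1 (1514) stayed first, Trf (524.3) came before Ftl1 (491.9) and Fth1 (303.0), and Mt3 was at 157.7, Hmox1 at 27.6, Tfrc at 10.2 and Cp at 8.86 RPKM.

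The single cells tell which retinal cells carried these transcripts. Cells were clustered without the 9 genes and the pathway genes, and a cluster was given the name of a cell class from marker genes, so rods, Müller glia and the others below are rod-like, Müller-glia-like and so on. Of 26764 cells, 22235 fell in clusters with a name. A cluster of 227 cells led by Ttr carried markers of RPE and of choroid and is left without a name. UMIs of a class were summed per library and scaled to CPM. Free RNA gives some UMIs of an abundant transcript in every class, so low levels in a class do not show expression there.

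In WT cells summed over the ages, Mt1 was highest in astrocytes (1739 CPM) and Müller glia (1405 CPM), with exact Poisson intervals, which cover counting error only, of 1560 to 1933 and 1366 to 1446. The ages overlapped, 594.3 to 1865 CPM in astrocytes and 1292 to 1511 CPM in Müller glia, so these classes were not separated. The Ttr cluster followed with 1020 CPM and rod bipolar cells with 508.8 CPM in the sums, but the Ttr cluster ranged from 823.2 to 7881 CPM, above both glial classes at P30, where it held 9 cells. Mt2 had the same leaders, with 263.7 CPM in astrocytes, 175.3 in Müller glia and 150.7 in the Ttr cluster. Mt3 was highest in astrocytes (446.2 CPM), then in retinal ganglion cells (361.2 CPM) and Müller glia (166.8 CPM), and the astrocyte and ganglion cell libraries overlapped.

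Cp in WT cells was a transcript of Müller glia (1454 CPM), astrocytes (1349 CPM) and the Ttr cluster (907.3 CPM), with pericytes next at 117.8 CPM. Trf was highest in the Ttr cluster (1120 CPM), ahead of microglia (690.8), astrocytes (603.4) and Müller glia (374.1), with widely overlapping ages in the first of these. Tfrc led in endothelial cells (144.1 CPM) and cone bipolar cells (135.5 CPM). Fth1 and Ftl1 were abundant in every class, with microglia first (5640 and 2794 CPM). Hmox1 was at 113.4 CPM in WT microglia, from only 11 UMIs, and at 14.4 CPM in the Ttr cluster, the class with the next level.

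In KO cells summed over the ages, Mt1 was at 5584 CPM in Müller glia (ages 4886 to 13360) and 4428 CPM in astrocytes (3249 to 5487), and Mt2 at 1274 CPM (637.9 to 6586) and 884 CPM (725.3 to 1818). The ages overlapped, so these classes were not separated in KO cells either. Horizontal cells were next for Mt1 at 1905 CPM (1126 to 2650). Trf led in astrocytes (3363 CPM) and Müller glia (1603 CPM), and Cp in astrocytes (2949 CPM) and Müller glia (1694 CPM). Hmox1 was at 82.3 CPM in microglia (44 UMIs), 14.5 CPM in Müller glia and 12.3 CPM in rods.

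**Figure D3:**
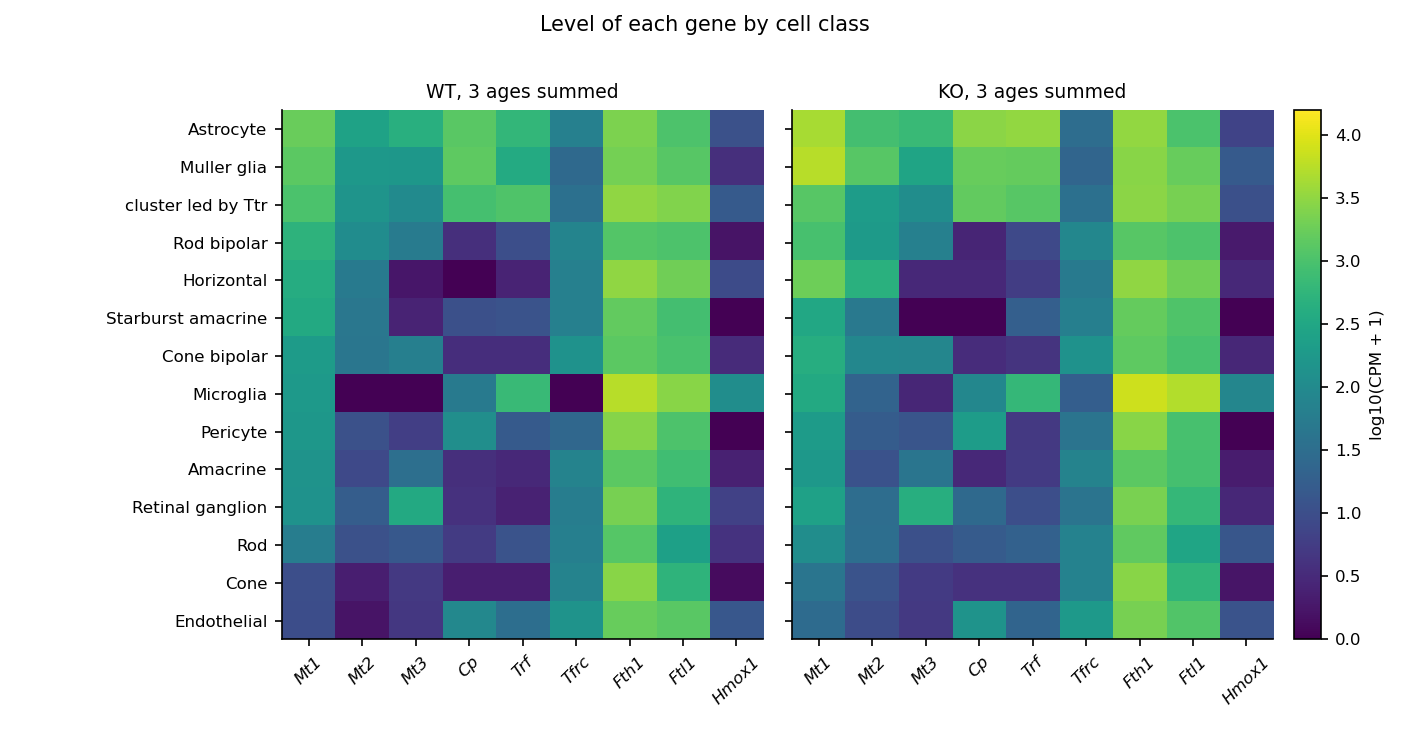
Level of the 9 genes in each cell class, WT at left and KO at right, with the 3 ages summed. Rows are cell classes, columns are genes, and color is log10 of CPM plus 1. Mt1 and Mt2 lead in astrocytes and Müller glia, Cp is bright in these and the Ttr cluster, ferritins are bright in every row, and Hmox1 is brightest in microglia.

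Müller glia, the radial glia that span the retina, had the most members past the test among the single-cell classes. Mt1, Mt2, Mt3 and Trf were higher in KO than in WT Müller glia at all 3 ages. These 4 of the 9 genes passed limma-trend over the 3 ages, with age in the model and 2 residual degrees of freedom, against 0.988% of 12550 genes tested. At an unadjusted p under 0.05 there were 1836 genes. The median log2 fold change over the 9 genes was 0.78, and that over all genes -0.071. The class held 1229 KO and 872 WT cells, of clusters 4 and 15, with cluster 15 supplying nearly all cells at P30 in both genotypes (152 of 154 KO and 125 of 129 WT cells). Mt2 and Mt1 were among the leading genes of cluster 15, and most cells at P19 and P25 were of cluster 4. Ages are therefore compared over different clusters. Within cluster 15 the ratios of KO to WT over the ages were 3.81 to 8.85 for Mt1 and 4.65 to 16.5 for Mt2.

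Mt1 in Müller glia was at 4886, 5015 and 13360 CPM in KO cells at P19, P25 and P30, and at 1292, 1490 and 1511 CPM in WT cells. Every KO library was above every WT library, and the ratios of KO to WT were 3.78, 3.37 and 8.84. The log2 fold change was 2.27 (SE 0.246, limma adjusted p = 0.00884). Mt2 was at 637.9, 990 and 6586 CPM in KO cells and at 117.7, 190.4 and 414.3 CPM in WT cells. Its ratio was also highest at P30, with counting intervals of 4.64 to 6.37 at P19, 4.64 to 5.85 at P25 and 13.1 to 19.5 at P30, and with 1 library per genotype and age that difference between ages was not tested. The log2 fold change over the ages was 2.93 (SE 0.285, limma adjusted p = 0.00703). Mt3 was at 335.8, 234.2 and 364.7 CPM in KO cells and at 170.5, 157.2 and 209.1 CPM in WT cells, without overlap, for a log2 fold change of 0.78 (SE 0.125, limma adjusted p = 0.0420). With a prior count of 0.5 in limma-trend the adjusted p rose to 0.0559 for Mt1 and 0.111 for Mt3, and without the 5% of cells with the most UMIs it was 0.0554 for Mt3.

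Trf in Müller glia was at 1402, 1634 and 2365 CPM in KO cells and at 401.1, 340.5 and 438 CPM in WT cells. It was already raised at P19, with ratios of 3.496, 4.799 and 5.399, and its log2 fold change was 2.16 (SE 0.136, limma adjusted p = 0.00183). Cp, in contrast, did not pass in these cells. It was at 1733, 1716 and 1336 CPM in KO cells and at 1661, 1312 and 1176 CPM in WT cells, with ratios of 1.04, 1.31 and 1.14, and its log2 fold change of 0.21 (95% interval -0.045 to 0.467) had an adjusted p of 0.429.

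Hmox1 in Müller glia rested on few UMIs, 43 against 3 at P19, 46 against 6 at P25 and 7 against 0 at P30, KO against WT. The levels were 17.7, 12.5 and 14.3 CPM in KO cells and 2.01, 3.56 and 0 CPM in WT cells. All KO libraries were above the WT libraries, and the log2 fold change of 2.60 (95% interval 1.374 to 3.815) had an adjusted p of 0.0739 in limma-trend. It passed with edgeR on the UMI counts (2.47, adjusted p = 0.000148) and with limma-trend without P19 (0.0461), P25 (0.0259) or P30 (0.00380). More genes of any kind passed in such fits. In Müller glia 303 to 689 genes did without 1 age and up to 1083 in other alternatives, against 124. The gain was therefore not particular to Hmox1. Fth1 was at 2789, 3065 and 1963 CPM in KO cells and at 2130, 2190 and 1409 CPM in WT cells, a ratio of 1.31 to 1.40 at each age. Its log2 fold change of 0.45 had an adjusted p of 0.101, that of Ftl1, 0.43, one of 0.129, and that of Tfrc, -0.13, one of 0.849.

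**Figure D4:**
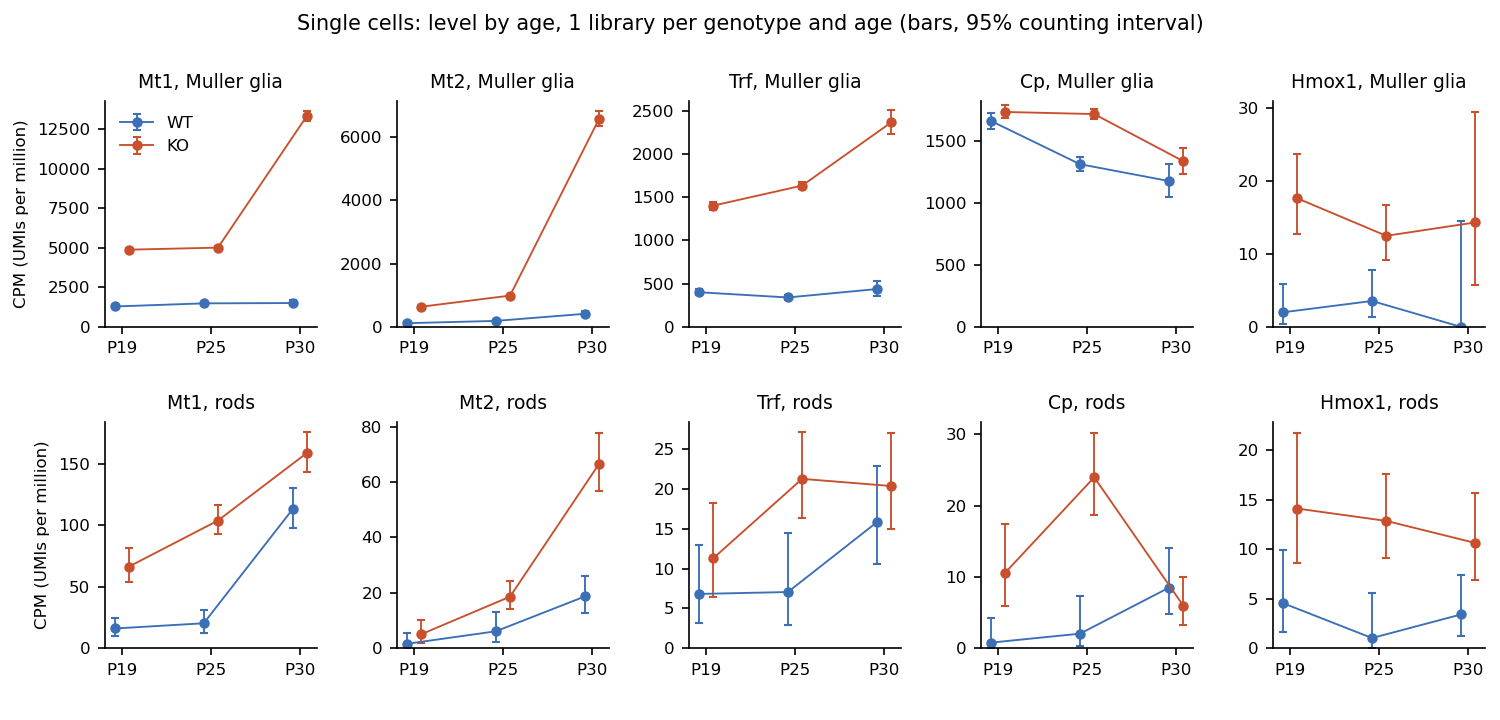
Level of Mt1, Mt2, Trf, Cp and Hmox1 in Müller glia (top) and rods (bottom) of WT and KO libraries at P19, P25 and P30, in CPM of UMIs summed per library. Each point is 1 library, bars are 95% counting intervals, and each panel has its own y axis. In Müller glia the KO points of Mt1, Mt2 and Trf lie above the WT points at all 3 ages, and in rods the levels of the same genes are far lower.

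Marker lists in these Müller glia also varied. The 11 Müller glia genes themselves summed to 25800, 23420 and 22310 CPM in KO cells at P19, P25 and P30 and to 26690, 27760 and 28130 CPM in WT cells, lower in KO at each age. The RPE genes were at 66.1, 17.4 and 41.0 CPM in KO and 54.8, 34.4 and 78.9 CPM in WT cells, and the microglia genes at 29.4 to 55.3 CPM over the 6 libraries. The red blood cell genes were at 4.11 to 16.0 CPM at P19 and P25, and at P30 at 1029 CPM in KO and 98.7 CPM in WT cells, the age with the highest Mt1 and Mt2 ratios. The rod genes were at 1106, 3607 and 4473 CPM in KO cells and at 1284, 1164 and 3903 CPM in WT cells, so P25 differed most. The part of these lists in the results was not tested.

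More Müller glia had a Trf UMI in the KO libraries. The share was 78.1%, 80.8% and 80.5% of KO cells and 51.2%, 56.3% and 48.1% of WT cells, with median depths of 5022, 5870 and 3076 UMIs in KO cells and 3878, 4440.5 and 1831 UMIs in WT cells. With each cell thinned to 1000 UMIs, which left out 10, 24 and 5 KO cells and 28, 14 and 17 WT cells, the shares were 56.9%, 61.0% and 67.8% against 24.8%, 25.4% and 33.9%. In rods, taken as the class that should lack the gene, the thinned shares were 0.807%, 0.791% and 1.41% in KO and 0.564%, 0.661% and 1.07% in WT cells, with median depths of 1019 to 1204 and 1033 to 1176 UMIs. Thinning left out 525, 579 and 899 KO and 281, 331 and 598 WT rods. The thinned share of Müller glia with an Mt2 UMI was 36.6%, 48.6% and 93.3% in KO and 10.5%, 14.2% and 33.0% in WT cells.

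In rods, the photoreceptors of dim light, the levels of Mt1 and Mt2 were far below those of Müller glia. Hmox1, with the ages summed, was at 3.18 CPM in WT rods and 2.62 CPM in WT Müller glia. In KO cells it was at 12.3 and 14.5 CPM. Mt1, Mt2 and Hmox1 were higher in KO rods than in WT rods. These 3 of the 9 genes passed limma-trend, against 6.26% of 11676 genes tested, with a median log2 fold change of 0.82 over the 9 genes and 0.010 over all genes. The class held 5008 KO and 3118 WT cells. The clusters behind it differed by library: cluster 0 was mostly KO at P19 and P25, cluster 1 mostly WT at P19 and P25, cluster 2 mostly KO at P30 and cluster 6 mostly WT at P30, and cluster 36 had 61 of its 72 cells from KO at P25.

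Mt1 in rods was at 66.2, 103.7 and 158.8 CPM in KO cells at P19, P25 and P30 and at 15.9, 20.1 and 113.1 CPM in WT cells. The WT level at P30 exceeded the KO levels of the earlier ages, and the ratio fell from 4.17 and 5.15 to 1.40. The log2 fold change was 1.59 (95% interval 1.031 to 2.154, limma adjusted p = 0.00199). Mt2 was at 4.93, 18.6 and 66.7 CPM in KO cells and at 1.51, 6.04 and 18.7 CPM in WT cells, higher in KO cells at each age, with a log2 fold change of 1.48 (limma adjusted p = 0.00595). Without P30 the value for Mt2 was 1.31 and no longer passed.

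The Müller glia genes in rods summed to 343.8, 526.7 and 399.5 CPM in KO cells and to 171.5, 186.1 and 650.1 CPM in WT cells, higher in KO at P19 and P25 and lower at P30. The number of Mt1 UMIs per Müller glia marker UMI in rods was 0.193, 0.197 and 0.397 in KO and 0.0925, 0.108 and 0.174 in WT cells, and in Müller glia themselves it was 0.189, 0.214 and 0.599 in KO and 0.0484, 0.0537 and 0.0537 in WT cells. In KO cells at P19 and P25 both classes thus had nearly the same ratio, while WT rods had more Mt1 per marker UMI than WT Müller glia. For Mt2 the ratio in rods was 0.0143, 0.0353 and 0.167 in KO and 0.00881, 0.0324 and 0.0287 in WT cells, and in Müller glia it was 0.0247, 0.0423 and 0.295 in KO and 0.00441, 0.00686 and 0.0147 in WT cells. The part of free Müller glia RNA in the metallothionein values of rods was not tested.

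Hmox1 in rods was at 14.1, 12.8 and 10.6 CPM in KO cells and at 4.53, 1.01 and 3.39 CPM in WT cells, from 20, 38 and 25 UMIs against 6, 1 and 6. All KO libraries were above all WT libraries, with a log2 fold change of 1.84 (95% interval 1.017 to 2.670, limma adjusted p = 0.0103), and without P25 the value of 1.40 did not pass. In other neurons of the same libraries Hmox1 was at 0 to 1.79 CPM in cones, 0 to 4.52 CPM in rod bipolar cells and 0.234 to 3.34 CPM in amacrine cells. Horizontal cells were at 6.39 to 11.99 CPM in WT and 0 to 5.66 CPM in KO libraries, from 10 and 3 UMIs. Retinal ganglion cells were at 4.70 to 8.66 and 0 to 4.05 CPM, from 15 and 4 UMIs. Both classes were lower in KO at each age. The KO level in rods was close to that in KO Müller glia (17.7, 12.5 and 14.3 CPM), and the part of free RNA in it was not tested.

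No other member passed in rods. Cp was at 10.6, 24.0 and 5.94 CPM in KO and 0.756, 2.01 and 8.48 CPM in WT cells, higher in KO at P19 and P25 and lower at P30 (log2 fold change 1.74, limma adjusted p = 0.0827). Trf was at 11.3, 21.3 and 20.4 CPM in KO and 6.80, 7.04 and 15.8 CPM in WT cells (0.82, 0.130). Ftl1 was at 314.9, 252 and 340 CPM in KO and 162.5, 109.7 and 378.2 CPM in WT cells (0.66, 0.0692). Fth1 was abundant, at 1820, 1512 and 1206 CPM in KO and 1374, 1017 and 1227 CPM in WT cells (0.32, 0.296), and Tfrc was at 93.7, 89.2 and 38.6 against 92.2, 75.5 and 36.2 CPM (0.12, 0.712). Mt3 was at -0.06 (0.955). Without P30 the log2 fold changes of Cp (2.78, limma adjusted p = 5.63e-06), Ftl1 (1.07, 2.32e-13) and Fth1 (0.49, 0.000217) passed, so that library pair decided these calls. A fit without 1 age has fewer residual degrees of freedom than the 2 of the full fit. Its adjusted p leans on the spread shared across genes. Of all rod genes, 410 to 1632 passed without 1 age, against 731. Without the 5% of cells with the most UMIs Cp (2.09, 0.00911) and Ftl1 (0.67, 0.0358) passed.

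None of the 9 genes passed in cones, bipolar cells or amacrine cells, in which few genes of any kind did. In cones 0.0383% of 10455 genes passed, in rod bipolar cells 0.0665% of 10533, in cone bipolar cells 0.0395% of 12671 and in amacrine cells 0.0212% of 14145, while 625, 638, 428 and 706 genes had an unadjusted p under 0.05. Mt1 and Mt2 are given first. The log2 fold change of Mt1 was 1.69 in cones (95% interval 1.082 to 2.289, limma adjusted p = 0.180), 1.04 in cone bipolar cells (0.757 to 1.328, 0.0708), 0.70 in rod bipolar cells (0.398 to 0.999, 0.146) and 0.25 in amacrine cells (0.798). Mt2 was at 1.56 in cones (0.765), 0.90 in cone bipolar cells (0.157) and 0.60 in rod bipolar cells (0.440). Trf in amacrine cells was at 1.15 (0.798). With edgeR in place of limma, Mt1 passed in cones (log2 fold change 1.87, adjusted p = 1.49e-06), cone bipolar cells (1.03, 1.05e-05) and rod bipolar cells (0.70, 0.000315), and Mt2 in cone bipolar cells (0.91, 0.000639) and rod bipolar cells (0.62, 0.00948).

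The Müller glia genes in cones were at 280.2, 212.9 and 249.8 CPM in KO and 145.2, 167.2 and 195.9 CPM in WT cells, and Mt1 UMIs per marker UMI in cones were 0.0982, 0.139 and 0.495 in KO and 0.0420, 0.0378 and 0.255 in WT cells. Rod bipolar cells had more Mt1 per marker UMI than Müller glia themselves, with 3.69, 2.59 and 7.17 Mt1 UMIs per marker UMI in KO and 2.75, 1.95 and 3.22 in WT cells, and cone bipolar cells had 1.16, 1.51 and 3.15 in KO and 0.768, 0.802 and 1.08 in WT cells. Both ratios were higher in KO cells at each age.

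**Figure D5:**
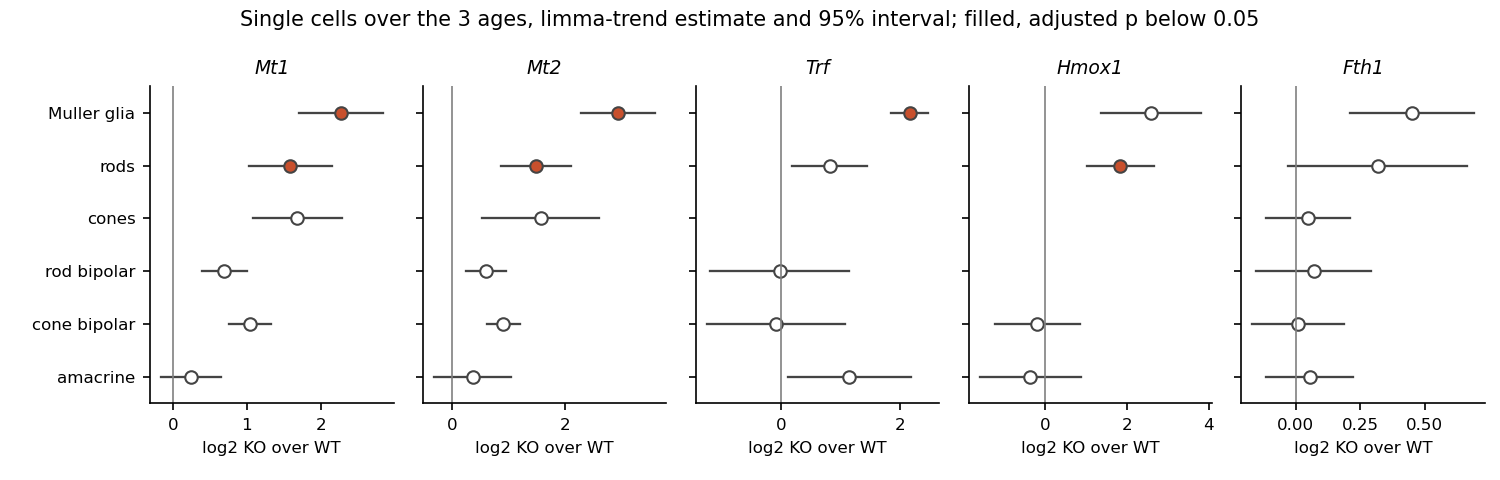
Log2 fold change of KO over WT for Mt1, Mt2, Trf, Hmox1 and Fth1 in each tested cell class over the 3 ages, with 95% intervals from limma-trend. Filled points have an adjusted p below 0.05, and a class without a point had too few UMIs of the gene. Müller glia pass for Mt1, Mt2 and Trf, rods for Mt1, Mt2 and Hmox1, and none of these 5 genes passes in cones, bipolar or amacrine cells.

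Horizontal cells, astrocytes, microglia and the Ttr cluster had too few cells for a test, and their values are given as they are. In horizontal cells, the interneurons of the outer retina, Mt1 was at 2086, 1126 and 2650 CPM in KO and 329.6, 357.3 and 809.5 CPM in WT cells at P19, P25 and P30, with ratios of 6.33, 3.15 and 3.27 and counting intervals above 1. Mt2 was at 335.4, 247.0 and 1591 CPM in KO and 26.8, 63.1 and 155.9 CPM in WT cells, also higher at each age. The Müller glia genes in horizontal cells were at 3826, 2393 and 1449 CPM in KO and 3552, 2456 and 1937 CPM in WT cells, and their part was not tested. In astrocytes (46 KO and 25 WT cells, with 2 and 1 at P30) Trf was at 1107, 5841 and 2775 CPM in KO and 270.1, 791.6 and 3764 CPM in WT cells at P19, P25 and P30. The counting intervals of the ratio were 2.76 to 6.33 at P19 and 5.83 to 9.47 at P25, above 1, and 0.3995 to 1.391 at P30. Cp was at 2246, 3783 and 1435 CPM in KO and 1421, 1312 and 594.3 CPM in WT astrocytes, higher in KO at each age. Mt1 was at 5487, 3249 and 5071 CPM against 1681, 1865 and 594.3 CPM, also higher at each age.

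In microglia, the macrophages of the retina (105 KO and 28 WT cells), Fth1 was at 7164, 8551 and 4310 CPM in KO and 6279, 5543 and 1893 CPM in WT cells, higher in KO at each age. Ftl1 was at 5028, 5603 and 3418 CPM against 2705, 2771 and 3515 CPM, higher in KO at P19 and P25. Hmox1 was at 67.5, 84.1 and 130 CPM in KO and 60.6, 25.0 and 946.3 CPM in WT cells, the last from 7 UMIs, so no direction was shared by the ages. Trf was at 699, 629.1 and 427.3 CPM against 787.3, 649.2 and 270.4 CPM, and each counting interval of its ratio covered 1.

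In the Ttr cluster, with 105 KO and 122 WT cells, Trf had no common direction over the ages. It was at 1318, 741.7 and 7923 CPM in KO and 614.9, 2341 and 12820 CPM in WT cells, higher in KO at P19 and lower at P25 and P30. Fth1 was at 3184, 2778 and 1475 CPM against 3209, 3039 and 2095 CPM, lower in KO at each age, with counting intervals of the ratio that all covered 1.

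The genes whose WT level over 13 cell classes was most like that of each member show the classes it shares. For Mt1, among 14522 genes, they were Dpp7 (Pearson r = 0.910), Fzd3 (0.863), Mt2 (0.833), Kcnk1 (0.832) and Dpy19l3 (0.828). For Cp they were Mmp14 (0.982), Prelp (0.954), Mob3b (0.951), Slc12a4 (0.948) and Plscr4 (0.947). For Trf they were Tmed7 (0.962), Apoe (0.958), Agmo (0.938), Cd9 (0.938) and 2310001H17Rik (0.935). These are descriptions over classes that share libraries, and rare classes with few UMIs weigh as much as rods.

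Pathway genes in Müller glia and rods are given by list, where 0.988% and 6.26% of all genes tested passed. Counts this small are no result about a list. In Müller glia none of 21 iron, 13 heme breakdown, 16 zinc and 10 copper genes did, 1 of 12 heme synthesis genes was higher (Tspo, log2 fold change 0.88, limma adjusted p = 0.0479), and 1 of 33 antioxidant response genes was higher (Maff, a small MAF factor, 1.90, 0.0490). Their medians were 0.123 for iron, -0.249 for heme synthesis, -0.224 for heme breakdown and 0.266 for the antioxidant response. By most UMIs, the peroxidases Gpx4 (0.55, 0.0572) and Prdx6 (-0.00055, 0.998), the RNA-binding iron chaperones Pcbp2 (0.27, 0.347) and Pcbp1 (-0.13, 0.636) and the zinc transporters Slc39a1 (0.11, 0.802) and Slc39a7 (-0.53, 0.279) did not pass. Nor did Urod (-0.29, 0.560) of heme synthesis, Pgrmc1 (-0.38, 0.186) and Lrp1 (0.35, 0.436) of the heme breakdown list, or the copper genes Atox1 (0.36, 0.222) and Cox17 (0.29, 0.387).

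In rods 2 of 14 iron genes were higher and 1 lower, a share above the 6.26% of all genes but from few genes. Among them were Slc25a37 (1.54, limma adjusted p = 4.4e-05), which also led the iron list in bulk retina, and Steap2 (-1.48, 0.00126). Of 10 heme breakdown genes 1 was higher, the biliverdin reductase Blvrb (1.38, 0.0321), and 1 of 26 antioxidant response genes, Gclm of glutathione synthesis (0.79, 0.0356), with a median of 0.191 over that list. These 4 genes and Maff are named because they passed, and were chosen after their values were seen. None of 12 heme synthesis, 15 zinc or 11 copper genes passed in rods. By most UMIs, Gpx4 was at 0.39 (0.182), Prdx2 at 0.35 (0.146), Pcbp2 at 0.03 (0.938), Fbxl5, which targets an iron regulatory protein for degradation, at -0.17 (0.474), Urod at -0.38 (0.170) and the zinc sensor Mtf1 at -0.20 (0.561). Cpox was at -0.19 (0.532), Slc30a9 at 0.34 (0.168), Pgrmc1 at 0.15 (0.639) and Pgrmc2 at 0.18 (0.508). The copper genes Slc31a2 and Commd1 were at -0.05 (0.903) and 0.14 (0.606).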

How the data were processed

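The members and the gene lists were chosen with earlier results of these data known. The bulk tables were deposited as raw, whole-number counts for each gene and library, and the submitters' notes name mm10, HOMER and edgeR 3.20.9 without roles. The aligner and counting program: not given in the sources used here. Symbols came from GENCODE M21 for 53706 of 53801 identifiers, and 95 had none. For single cells (Cell Ranger 2.1 and Seurat 3.2.2 in the notes) the authors deposited natural log values after scaling each cell to 10000, and UMI counts were recovered by 2 inverse steps, after which 100% of values were whole within 0.01.

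Bulk counts were compared in R 4.3.3 with edgeR 4.0.16 (default low-count filter, TMM, quasi-likelihood test, Benjamini-Hochberg adjustment over all genes tested). CPM used TMM library sizes within each tissue, and RPKM those over all 16 libraries. Deviations of same-numbered WT and KO libraries correlated at 0.108 to 0.291 in the retina and 0.332 to 0.701 in the RPE. Unlike-numbered libraries ranged from -0.278 to 0.225 and from -0.705 to 0.692, so some were as close. In the RPE the close unlike numbers were 1 with 4 and 2 with 3. The numbers were thus not shown to be pairs. The replicate block was an alternative, given where it changed a call.

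Cells were clustered with scanpy 1.11.5 and leidenalg 0.10.2 on 30 principal components of 2000 variable genes at resolution 1.0, without 139 member and pathway genes. The mean marker z score of at least 1.0 needed for a name was set after seeing the data, and kept out clusters with 4.67% to 12.7% of cells in KO and 7.35% to 13.4% in WT libraries. No doublet caller was run, but each library was also tried without its 5% of deepest cells. UMIs were summed per class and library and compared with limma-trend (limma 3.58.1, prior count 2, at least 20 UMIs over the 6 sums) in classes with at least 50 cells in each library. Cells were assigned to single-cell libraries by the prefix of their names, in which A was read as AdipoR1-/-, the one genotype besides WT. Scripts were tested on simulated data. Named besides the 9 genes are Adipor1, the 3 genes of each pathway list with the smallest p in a bulk tissue, the 2 with the most UMIs in Müller glia and rods, and the 5 genes most like Mt1, Cp and Trf. Alternatives were DESeq2 1.42.0, limma-voom, other scalings, filters, prior counts and clusterings, and leaving out libraries or ages. Sequences came from RefSeq promoters and GRCm38. The values of 1 gene of the iron list are not reported here.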

Additional observations from a re-analysis of the deposited data

Results flagged for a closer look

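Fth1 stood at 340.0 CPM in 1 WT retina library, WT library 2, while the others were at 311.3 to 314.5 CPM. The gap made up most of the range of the group, and chance marks about 1 in 20 groups, of which 36 were examined. The genotype effect differed between the tissues, by the interaction test in edgeR, for 5 genes. The effect in the RPE minus that in the retina, on the log2 scale, was -1.43 for Mt1, -2.38 for Mt2, -1.10 for Mt3, -2.29 for Trf and -0.70 for Hmox1. Their adjusted p are given with the tissue comparison. With RPE libraries 1 and 4 alone, which carried the least rod RNA, 8 of the 9 genes passed this test. That alternative was chosen after seeing the data. The number of all genes passing the interaction ranged from 1260 to 2992 over the alternatives, against 1863 as reported. The count of 8 is therefore not a result beyond that of the main fit.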

How the results depend on the processing

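Of 1189 values recomputed for single genes, 1106 kept their direction and side of the threshold, 16 lost and 37 gained the threshold, and 30 changed sign, none of them a value that had passed. Of the 9 genes, 8 passed in the retina without any 1 library, but 5 in 1 fit over all 16 bulk libraries, where Mt3, Tfrc and Ftl1 were lost. In the RPE 2 to 3 passed without 1 library and 1 with libraries 1 and 4 alone, an alternative chosen after seeing the data, where Mt3 remained (0.0460). The interaction passed for 5 to 7 genes without 1 library: Ftl1 also passed without WT RPE library 2 (0.00726), and Cp (0.00896) and Tfrc (0.0374) without WT RPE library 3. Scaling by library totals moved the median of all retina genes from 0.004 to 0.114 and brought Fth1 past the threshold (0.17, adjusted p = 0.00403). The cause of these changes was not tested.

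With the replicate block the members passing were 8 in the retina, 2 in the RPE, 5 for the interaction and 9 between WT tissues, and apart from Mt1 in the RPE no member changed its call. Retina and RPE libraries of 1 genotype share only a number (correlations -0.106 to 0.300).

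In Müller glia 7 members passed with edgeR on the UMI counts, 2 with a prior count of 0.5, where Mt1 and Mt3 were lost, and 5 to 6 without 1 age. In rods 5 passed without the 5% of cells with the most UMIs and 2 to 5 without 1 age. With edgeR 1 member passed in cones, 2 in cone bipolar and 2 in rod bipolar cells, and without 1 age 0 to 1, 1 to 2 and 0 to 2. Over all genes the number passing varied more: 2731 to 7340 in the retina (5990 as reported), 208 to 2863 in the RPE (1278), 1260 to 2992 for the interaction (1863), 28 to 1083 in Müller glia (124) and 410 to 1632 in rods (731).

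Of the values that changed sign, in the RPE, Cp was 0.15 with limma-voom, 0.13 with the replicate block and 0.0048 in the fit over all bulk libraries, and Tfrc was 0.10 with libraries 1 and 4 alone. Without 1 library Cp ranged from -0.28 to 0.36, Tfrc from -0.0577 to 0.0576 and Fth1 from -0.16 to 0.0098. With edgeR Cp was -0.32 in amacrine and -0.048 in cone bipolar cells, Trf 0.28 in cone bipolar cells and Tfrc -0.021 in cones. Tfrc in cone bipolar cells was -0.13 at clustering resolution 0.5, Mt3 in rods 0.0766 without the deepest cells, and Trf in rod bipolar cells 0.19 with a prior count of 0.5. Without 1 age, amacrine cells gave -0.0681 to 0.16 for Ftl1, -0.45 to 1.28 for Cp and -0.0312 to 0.19 for Tfrc, and cones -0.0899 to 0.43 for Tfrc. Cone bipolar cells gave 0.20 to 0.23 for Trf, -0.032 to 0.0665 for Fth1 and -0.16 to 0.15 for Cp. Rods gave -0.57 to 0.61 for Mt3, and rod bipolar cells -0.77 to 0.43 for Trf and -0.16 to 0.0135 for Ftl1. Depth limits Hmox1 most, with at most 46 UMIs in any library of Müller glia or rods.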
